A study of Mus musculus with 79 samples.

Results

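The genes described here are 34 receptors of non-opioid neuropeptides and the secreted CRH-binding protein Crhbp, 35 genes in all, chosen by name from the 25899 gene symbols of the table. All 35 were present. They were measured in the mouse brain in 79 bacTRAP libraries, a method in which an eGFP-tagged ribosomal protein L10a is pulled down with its mRNA. Heterozygous mice on a C57BL/6J background carried a bacterial artificial chromosome that drove the tagged protein from the dopamine D1a receptor promoter (D1 libraries) or the D2 receptor promoter (D2 libraries). The groups were D1 dorsal striatum (15 libraries), D2 dorsal striatum (16), D1 ventral striatum (nucleus accumbens, 15), D2 ventral striatum (14) and D1 prefrontal cortex (19), and no drug or lesion is named in the labels for any of them. Each library pooled tissue from 3 mice of both sexes, per the series' design text, so a library is the replicate and p-values measure the spread between pools. The promoter sets which cells carry the tag, and every cell in the dissected piece that uses it is sampled. D2 neurons of prefrontal cortex are not analysed here.

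Neuropeptides are cut from larger precursors, released from dense-core vesicles and act mostly on G protein-coupled receptors, often at some distance from the release site. In the striatum, D1 projection neurons make substance P and dynorphin and D2 projection neurons make enkephalin, while interneurons make somatostatin, neuropeptide Y and acetylcholine. Which projection neuron or cortical neuron carries the receptor for a given peptide decides which cells can respond to it.

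Sequencing depth ran from 7.35 to 30.8 M reads in listed genes per library (median 17.5 M), and 1 read was worth 0.0124 to 0.0466 CPM (read counts that the authors scaled to one fixed total per library). Marker genes matched the promoter labels. Drd1a had a median of 231.7 CPM in D1 and 12.1 CPM in D2 dorsal libraries, and Drd2 had 5.53 and 1145.9 CPM. In the D1 prefrontal libraries Drd1a was lower (median 16.7 CPM), Drd2 was near 0 (0.964 CPM) and the cortical glutamatergic marker Slc17a7 was high (236.5 CPM). Cortical glutamatergic markers also differed within the striatum: the 6 of them summed to a median of 101.3 CPM in D1 dorsal and 66.2 CPM in D1 ventral libraries, against 8.31 and 11.3 CPM in the D2 libraries, and 639.9 CPM in prefrontal cortex. D2 ventral replicate 2 (84.7 CPM, next highest 20.4) and D2 dorsal replicate 1 (37.2, next 17.3) stood above the rest of their groups for these markers. D1 dorsal replicate 13 was the least like its group's median profile (Pearson r = 0.919 across genes, which are not independent) and had the group's highest Gad2 (954.9 CPM, group median 500.2), a GABA synthesis enzyme that projection neurons and interneurons share. Its Lhx6, 1 of 8 measured GABA interneuron markers, was the lowest of the group (0.523 CPM, group median 1.94). The sum of all 8, which include Gad2, was the group's highest in that library (997.9 CPM, next highest 711.3). Gad2 stays in this list in the counts below. The library least like its group's median profile also had the highest Gad2 in D2 dorsal striatum (replicate 6, r = 0.943, 926.1 CPM), D2 ventral striatum (replicate 6, r = 0.955, 1684.7 CPM) and prefrontal cortex (replicate 10, r = 0.948, 401.7 CPM), but not in D1 ventral striatum (replicate 15, r = 0.975). The highest Lhx6 lay in other libraries in each of these groups.

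Most of these receptors are low-abundance messages. Per kilobase of exon, the only scale on which genes are compared with each other here, the highest mean in striatum was that of Mchr1, the receptor of melanin-concentrating hormone, at 6.72 CPM per kb in D1 dorsal, 8.14 in D2 dorsal, 6.75 in D1 ventral and 7.07 in D2 ventral libraries. In prefrontal cortex Cckbr (cholecystokinin B receptor, 5.80 CPM per kb), Adcyap1r1 (PACAP receptor, 5.78) and Sstr2 (4.86) had the highest means. At the low end, Calcr had no read in any of the 19 prefrontal libraries and Avpr1a none in any of the 16 D2 dorsal libraries. A count of 0 allows up to 3 reads, which is 0.0436 to 0.105 CPM in the prefrontal and 0.0387 to 0.140 CPM in the D2 dorsal libraries, counting error only.

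A test was run with limma on log2(CPM + 0.5), and a gene was tested in a comparison when the number of libraries with 1 CPM or more was not below the size of the smaller group. Calls are at a Benjamini-Hochberg adjusted p under 0.05 over all genes tested, and log2 differences are on that scale, which understates the change of low genes. Of the 35 members, 18 were tested in at least 1 of the 6 comparisons between 2 groups and 17 in none, while 17 were called in at least 1. A member can pass the filter on its higher group alone, so the counts and medians below describe those that passed and not the whole set. Where a member did not reach 1 CPM in enough libraries, its result with the filter lowered to 0.2 CPM is given and named as such. In libraries of pooled tissue, fewer cells of a type and less RNA per cell cannot be told apart.

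Promoter windows are shown for 5 members whose 250 bases before the annotated start overlap no annotated exon and that stand for the patterns described below: Sstr2 (higher in D1 than in D2 libraries), Tacr3 (higher in D2 libraries), Mchr1 (higher in striatum than cortex), and Ntsr1 and Grpr (higher in cortex than striatum). Sequences are from RefSeq, build GRCm38.p6, 5′ to 3′ on the gene's strand, at Sstr2 chr11:113619077-113619326 (plus strand), Tacr3 chr3:134828757-134829006 (plus strand), Mchr1 chr15:81235249-81235498 (plus strand), Ntsr1 chr2:180499726-180499975 (plus strand), Grpr chrX:163549737-163549986 (minus strand). Capitals mark TATA boxes (TATAAA), GC boxes (GGGCGG) and CRE half-sites (TGACG), each on either strand, and overlapping half-sites merge into the full CRE, TGACGTCA.
Sstr2: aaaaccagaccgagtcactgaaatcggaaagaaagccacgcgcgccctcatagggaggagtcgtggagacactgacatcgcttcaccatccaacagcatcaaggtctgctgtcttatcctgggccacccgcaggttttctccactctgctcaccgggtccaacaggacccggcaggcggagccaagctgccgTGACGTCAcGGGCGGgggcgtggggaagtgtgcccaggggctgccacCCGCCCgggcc
Tacr3: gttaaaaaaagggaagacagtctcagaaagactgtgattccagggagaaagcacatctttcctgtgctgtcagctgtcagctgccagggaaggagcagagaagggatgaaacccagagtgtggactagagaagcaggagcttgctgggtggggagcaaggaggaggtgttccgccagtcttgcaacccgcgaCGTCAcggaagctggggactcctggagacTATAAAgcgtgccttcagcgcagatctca
Mchr1: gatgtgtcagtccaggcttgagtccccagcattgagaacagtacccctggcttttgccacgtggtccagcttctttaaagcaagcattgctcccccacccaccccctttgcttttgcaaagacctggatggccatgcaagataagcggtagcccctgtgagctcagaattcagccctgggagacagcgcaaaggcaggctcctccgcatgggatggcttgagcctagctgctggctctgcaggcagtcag
Ntsr1: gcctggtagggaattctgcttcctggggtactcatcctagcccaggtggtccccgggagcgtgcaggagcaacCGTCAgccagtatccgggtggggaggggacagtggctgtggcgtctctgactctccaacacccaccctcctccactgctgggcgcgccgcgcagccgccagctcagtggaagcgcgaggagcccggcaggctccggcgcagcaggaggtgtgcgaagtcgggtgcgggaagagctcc
Grpr: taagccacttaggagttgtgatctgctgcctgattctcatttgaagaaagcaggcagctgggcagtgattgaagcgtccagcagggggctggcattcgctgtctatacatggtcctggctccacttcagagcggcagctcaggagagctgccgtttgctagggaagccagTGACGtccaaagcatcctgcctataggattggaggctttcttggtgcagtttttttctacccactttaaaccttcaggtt
Sstr2 held 1 full CRE, which is 2 overlapping half-sites, and 2 GC boxes. Tacr3 held 1 half-site and 1 TATA box, Ntsr1 and Grpr 1 half-site each, and Mchr1 none of the motifs. Over 32851 promoter windows of the same length, the shares with the motif were 17.8% for the half-site, 1.55% for the full CRE, 32.7% for the GC box and 12.4% for the TATA box. Of the 33 windows of the 29 members with a promoter entry, 11 held a half-site, 11 a GC box and 3 a TATA box. A match is a run of letters and does not show that a factor binds.

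The first comparison asks which receptors differ between D1 and D2 neurons of the same striatal region. The somatostatin receptors Sstr2 and Sstr3, Cckbr and the neuropeptide Y receptor Npy1r were higher in D1 libraries, and the substance P receptor Tacr1 was higher in D2 libraries, in both regions. Sstr4 was higher in D1 libraries of ventral striatum and, with a lower filter, of dorsal striatum. In dorsal striatum 9 members were tested and 6 called, 5 higher and 1 lower in D1, with a median log2 difference of 0.57 against 0.02 over all genes. The background over all genes was 25.9% called, 12.8% D1-high and 13% D2-high. In ventral striatum 12 were tested and 7 called, 5 higher and 2 lower in D1, with a median of 0.31 against 0.02. Of all genes there, 47.7% were called, 24.1% higher and 23.6% lower. At the 0.2 CPM filter the dorsal member median was 0.50 over 17 members and the ventral one -0.04 over 27. Over all genes both medians were 0.03 at that filter. Scaling each library to its reads in genes moved the ventral median of all genes from 0.02 to 0.13, and the share of called genes that were D1-high from 49.6% to 59.7% in dorsal and from 50.5% to 66.1% in ventral striatum. Among EM libraries alone 12.3% of all genes were called in dorsal striatum, and with the letters of the library name as a covariate 15%. OdP libraries were 8 of the 16 D2 dorsal and 0 of the 15 D1 dorsal libraries. With the percentage of reads in genes as covariate, 10.7% of all genes were called in ventral striatum. That percentage of the scaled total ran from 32.8% to 37.5% in D1 and from 34.7% to 39.8% in D2 ventral libraries. The covariate thus partly follows the promoter. Of the members, 6 of 10 tested were called among EM libraries in dorsal striatum, and 5 of 12 with that covariate in ventral striatum. Markers of other cells moved with the promoter too. In dorsal striatum 3 of the 6 GABA interneuron markers tested (Sst, Npy and Pvalb) were D1-high, with a median over the 6 of 0.69, and in ventral striatum none was D1-high and Lhx6 was D2-high (median -0.06). Oligodendrocyte markers were D2-high, 2 of 4 tested in dorsal (median -0.67) and 2 of 3 in ventral striatum (median -1.35). Their part in the receptor results was not tested. The 4 comparisons within striatum share their libraries pairwise.

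**Figure D1:**
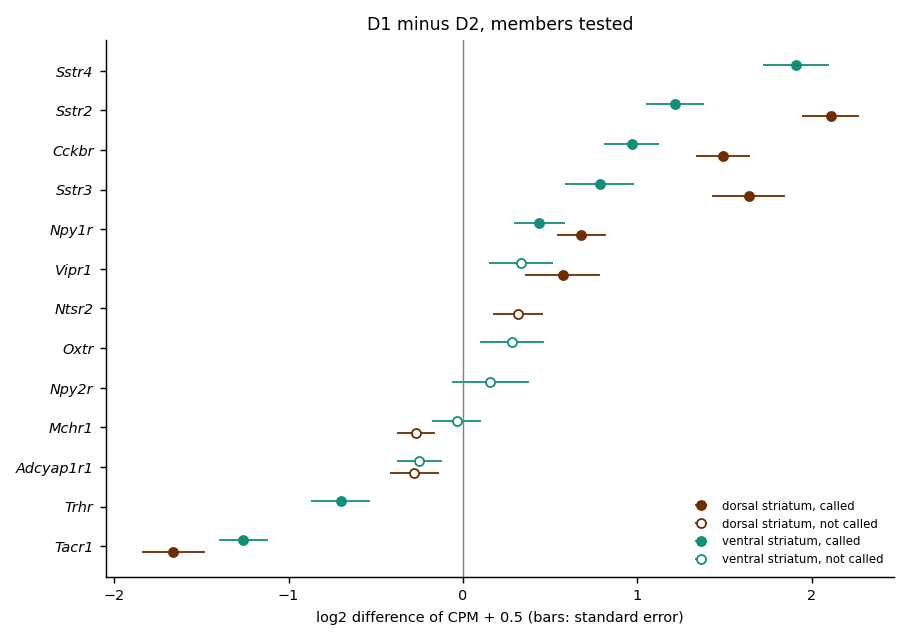
Difference in log2(CPM + 0.5) between D1 and D2 libraries (x axis) for each member tested (y axis), with standard errors as bars, in dorsal (brown) and ventral (green) striatum. Filled points were called, and Tacr1 lies farthest to the D2 side and Sstr2 and Sstr4 farthest to the D1 side.

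The somatostatin receptors, which couple to inhibitory G proteins and bind the peptide made by a class of striatal interneuron, included the members with the widest D1 over D2 differences, Sstr2 in dorsal and Sstr4 in ventral striatum at the 1 CPM filter. Sstr2 ran from 1.02 to 6.06 CPM (median 3.35) in D1 dorsal libraries and from 0.0476 to 0.894 CPM (median 0.349) in D2 dorsal libraries. No D2 dorsal library reached the lowest D1 dorsal library. The log2 difference was 2.11 ± 0.16 (SE, adjusted p = 5.7e-13, limma). In ventral striatum Sstr2 ran from 1.33 to 4.37 CPM (median 2.52) in D1 and from 0.0491 to 1.47 CPM (median 0.660) in D2 libraries, and 13 of 15 D1 values exceeded the highest D2 value. The log2 difference there was 1.22 ± 0.17 (adjusted p = 5.77e-07, limma). Sstr2 was the only member called when the D1 minus D2 difference was itself compared between regions, with a difference of 0.89 ± 0.23 (adjusted p = 0.0158, limma). In that test 16 members were tested and 1 called, against 2.64% of all genes, 1.93% with a larger and 0.707% with a smaller D1 minus D2 difference in dorsal striatum. Of the markers, 5 of 5 of D2 neurons (median -1.93), 2 of 6 of GABA interneurons (0.74) and 0 of 5 of cortical neurons (1.12) were called. Their part in the Sstr2 result was not tested. Scaling to reads in genes moved the share of called genes with a larger dorsal difference from 73.2% to 61.6%, and quantile normalization to 60.5%. Npy2r (1.01 ± 0.31, adjusted p = 0.0587, limma) was called in that test without D1 ventral replicate 15 (1.07, adjusted p = 0.0390) or D2 ventral replicate 6 (1.11, adjusted p = 0.0256), and Oxtr without D2 dorsal replicate 6 (0.87, adjusted p = 0.0461). Npy2r was also called with a pseudocount of 0.1 (1.68), with the letters of the library name as covariate (1.03), with all 5 groups in 1 fit (1.01) and with edgeR (2.17, adjusted p = 0.00384). Sstr3 (0.85 ± 0.29, adjusted p = 0.109, limma) was called with the letters of the name (0.84) or the percentage of reads in genes (1.03) as covariate and with all 5 groups in 1 fit (0.85). Trhr, the thyrotropin-releasing hormone receptor (0.67 ± 0.23, adjusted p = 0.114, limma), was called with a pseudocount of 1 (0.63, adjusted p = 0.0464, limma).

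Sstr4 was also on the D1 side in both regions. In ventral striatum it ran from 1.51 to 5.66 CPM (median 2.38) in D1 and from 0 to 1.45 CPM (median 0.274) in D2 libraries, with no overlap. Its log2 difference was 1.91 ± 0.19 (adjusted p = 8.24e-10, limma). In dorsal striatum it ran from 0.131 to 7.60 CPM (median 3.47) in D1 libraries and from 0 to 0.705 CPM (median 0.0437) in D2 libraries. It missed the filter at 1 CPM there because D1 dorsal replicate 13 was at 0.131 CPM, and at 0.2 CPM the log2 difference was 2.49 ± 0.22 (adjusted p = 1.46e-11, limma). Without that library it passed at 1 CPM, with 2.67 ± 0.16 (adjusted p = 6.36e-16, limma). Sstr3, a somatostatin receptor known for its place in neuronal cilia, ran from 0.454 to 3.95 CPM (median 1.71) in D1 and from 0 to 1.41 CPM (median 0.164) in D2 dorsal libraries. These ranges overlapped, and 11 of 15 D1 values exceeded the highest D2 value. The log2 difference was 1.64 ± 0.21 (adjusted p = 1.27e-07, limma). In ventral striatum it was 0.78 ± 0.20 (adjusted p = 0.0019, limma), and that call was lost when each library's percentage of reads in genes was a covariate (0.32, adjusted p = 0.472, limma). Without D1 ventral replicate 15 it did not reach the filter there.

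Cckbr, which binds cholecystokinin, was called in all 6 comparisons between groups, and no other member was. In dorsal striatum it ran from 1.80 to 4.53 CPM (median 3.08) in D1 and from 0.127 to 2.21 CPM (median 0.855) in D2 libraries. In 14 of 15 D1 libraries the value exceeded the highest D2 value. The log2 difference was 1.49 ± 0.15 in dorsal striatum (adjusted p = 1.26e-09, limma) and 0.97 ± 0.16 in ventral striatum (adjusted p = 9.93e-06, limma). The highest D2 value in either region came from the library with the most cortical marker RNA, D2 dorsal replicate 1 and D2 ventral replicate 2 (5.19 CPM), and leaving out either library ended no member's call. D2 dorsal replicate 1 also held the highest D2 dorsal values of Sstr2 (0.894 CPM), Sstr3 (1.41 CPM) and Sstr4 (0.705 CPM). Their highest D2 ventral values came from libraries other than D2 ventral replicate 2. Npy1r, an inhibitory receptor of neuropeptide Y, ran from 3.90 to 12.3 CPM (median 5.62) in D1 and from 2.22 to 5.68 CPM (median 3.54) in D2 dorsal libraries. The groups overlapped, and the log2 difference was 0.68 ± 0.14 (adjusted p = 0.000415, limma). In ventral striatum Npy1r differed by 0.44 ± 0.15 (adjusted p = 0.0145, limma), but among the libraries whose names start with EM, the largest naming code, the difference was 0.22 (adjusted p = 0.277, limma).

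**Figure D2:**
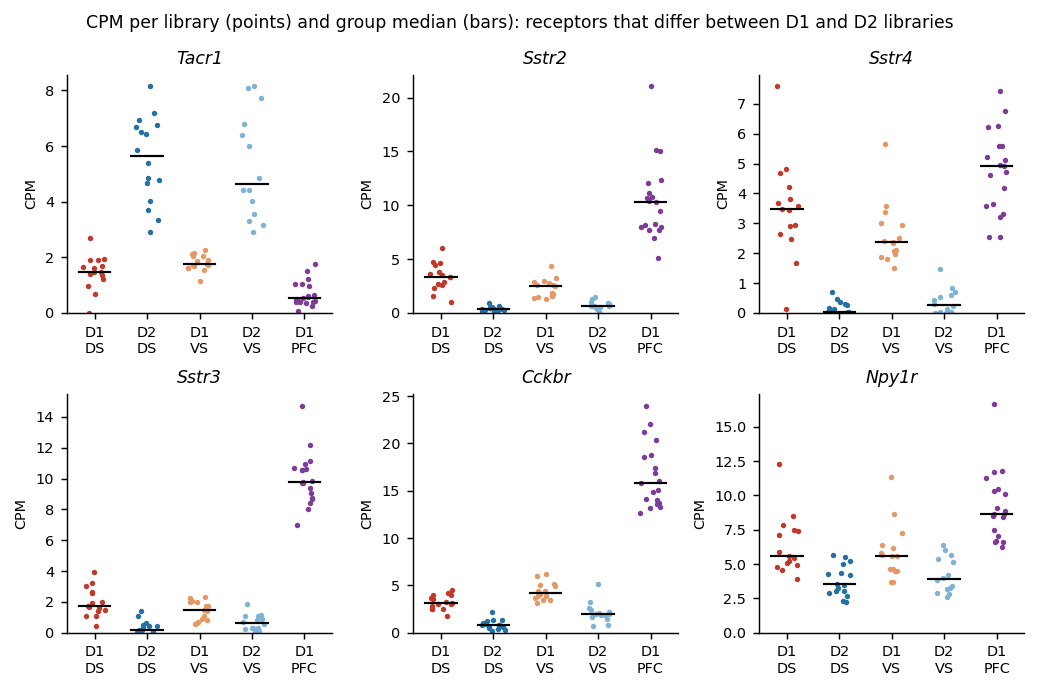
CPM of 6 receptors (y axis, from 0) in each library, 1 point per library, by group (x axis: receptor promoter and region), with black bars at the group medians. In D2 dorsal libraries the medians are 0.349 CPM for Sstr2, 0.164 for Sstr3, 0.0437 for Sstr4 and 0.855 for Cckbr, Tacr1 is highest in both D2 groups, and Npy1r overlaps between D1 and D2.

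On the D2 side, Tacr1, the receptor of substance P (from Tac1), ran from 2.92 to 8.16 CPM (median 5.63) in D2 dorsal libraries and from 0 to 2.70 CPM (median 1.48) in D1 dorsal libraries. In ventral striatum it ran from 2.89 to 8.16 CPM (median 4.65) in D2 and from 1.15 to 2.25 CPM (median 1.74) in D1 libraries. Neither pair of groups overlapped. The log2 differences were -1.66 ± 0.18 (adjusted p = 3.53e-09, limma) and -1.26 ± 0.14 (adjusted p = 7.71e-09, limma). The difference between the regions was -0.40 ± 0.23 (adjusted p = 0.415, limma) and did not pass the test. Tacr1 is known in striatum from cholinergic and somatostatin interneurons, and the 3 measured cholinergic markers also moved with the D2 promoter, with summed medians of 6.32 CPM in D2 and 0.751 CPM in D1 dorsal libraries and of 12.2 and 1.34 CPM in ventral ones. Sst and Npy, the genes of somatostatin and neuropeptide Y, went the other way in dorsal striatum, where both were D1-high. In ventral striatum neither was D1-high. The part of either interneuron type in the Tacr1 result was not tested. Over the 79 libraries the genes most like Tacr1 were Drd2 (Spearman rho = 0.903), Slitrk6 (0.892) and Penk (0.890), a description over libraries that share tissue and promoter, with no test.

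Tacr3, the neurokinin B receptor, was also D2-high but low in both regions, and Calcrl, the partner of the RAMP proteins in receptors for CGRP and adrenomedullin, in dorsal striatum. With the filter at 0.2 CPM, 13 of 17 members tested were called in dorsal striatum, against 25.3% of all genes, and 14 of 27 in ventral striatum, against 44.4%. Tacr3 had a median of 0.863 CPM in D2 and 0.168 CPM in D1 dorsal libraries (log2 difference -1.10 ± 0.17, adjusted p = 3.42e-06, limma), and -0.74 ± 0.14 in ventral striatum (adjusted p = 9.25e-05, limma). Calcrl had medians of 0.725 and 0.140 CPM in dorsal striatum (-0.95 ± 0.14, adjusted p = 1.94e-06, limma), and its ventral difference of -0.41 ± 0.18 did not pass the test (adjusted p = 0.0555, limma). Crhr1, the receptor of corticotropin-releasing hormone, was D2-high in both regions at that filter (dorsal -0.56, ventral -0.40). In ventral striatum, Trhr, the TRH receptor, was D2-high at 1 CPM (-0.70 ± 0.17, adjusted p = 0.00116, limma), a call lost when each library's percentage of reads in genes was a covariate (-0.39, adjusted p = 0.285, limma). Calcr (-0.67) and Glp1r (-0.60), the receptors of calcitonin and GLP-1, were called D2-high there at 0.2 CPM.

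Further D1-high receptors had values near the filter. At 0.2 CPM, Npy2r (1.17 ± 0.20), Oxtr, the oxytocin receptor (1.00 ± 0.22), and Npy5r (0.50 ± 0.15) were called D1-high in dorsal striatum. Oxtr ran from 0.365 to 2.76 CPM in D1 dorsal libraries and reached 3.22 CPM in D2 dorsal replicate 6. The groups overlapped, with 11 of 16 D2 libraries below every D1 library. Mc3r, a melanocortin receptor, did not overlap in ventral striatum, with 0.419 to 1.11 CPM (median 0.711) in D1 and 0 to 0.412 CPM (median 0.227) in D2 libraries, and the log2 difference was 0.87 ± 0.12 (adjusted p = 3.44e-07, limma, filter at 0.2 CPM). Ntsr1 (0.51) and Crhbp (0.57) were also called D1-high in ventral striatum at that filter. Vipr1, a receptor of VIP and PACAP, was D1-high in dorsal striatum at 0.57 ± 0.21 (adjusted p = 0.0452, limma), and it was not called without D2 dorsal replicate 6 (adjusted p = 0.0602, limma) or among EM libraries alone (0.18, adjusted p = 0.729, limma). Adcyap1r1 and Mchr1 were tested in both regions and called in neither, with differences of -0.28 and -0.27 in dorsal and -0.25 and -0.04 in ventral striatum. Dorsal Mchr1 was called without D2 dorsal replicate 6 (-0.32, adjusted p = 0.0224, limma), with median-ratio scaling (-0.29, adjusted p = 0.0437, limma), with quantile normalization (-0.29, adjusted p = 0.0378, limma) and with edgeR (-0.29, adjusted p = 0.0414). Ventral Adcyap1r1 was called without D2 ventral replicate 6 (-0.30, adjusted p = 0.0447, limma).

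Several D1-high receptors are also prefrontal receptors, so their level in striatum was set beside that of the cortical markers, as a percent of the prefrontal mean. The 6 cortical markers lay between 10.8% (Neurod6) and 24.5% (Emx1) of the prefrontal mean in D1 dorsal libraries and between 0.914% and 2.67% in D2 dorsal libraries. In D1 dorsal libraries 5 of the 6 markers were at or below 16.8%, and Emx1, the exception, had a prefrontal mean of only 1.24 CPM. Cckbr (19.4%) and Sstr3 (20.0%) lay above those 5 markers and below Emx1, Sstr2 (32.3%) lay above all 6, and Sstr4 (73.0%), Npy1r (69.5%), Vipr1 (83.1%) and Npy2r (102.6%) far above them. Ntsr1 (9.25%) and Crhbp (8.99%), called D1-high in ventral striatum at the 0.2 CPM filter, lay below all 6 in D1 dorsal libraries. In D2 dorsal libraries Sstr2 (3.50%), Sstr3 (3.26%), Sstr4 (3.29%) and Cckbr (5.27%) lay above the markers. In D1 ventral libraries the markers other than Emx1 (20.7%) lay between 6.61% and 11.7%. Sstr3 (14.5%) lay above those 5 and below Emx1, and Sstr2 (22.3%), Cckbr (26.5%) and Sstr4 (55.3%) lay above all 6. How much of the striatal Cckbr, Sstr2, Sstr3, Ntsr1 and Crhbp signal came with cortical RNA was not tested.

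**Figure D3:**
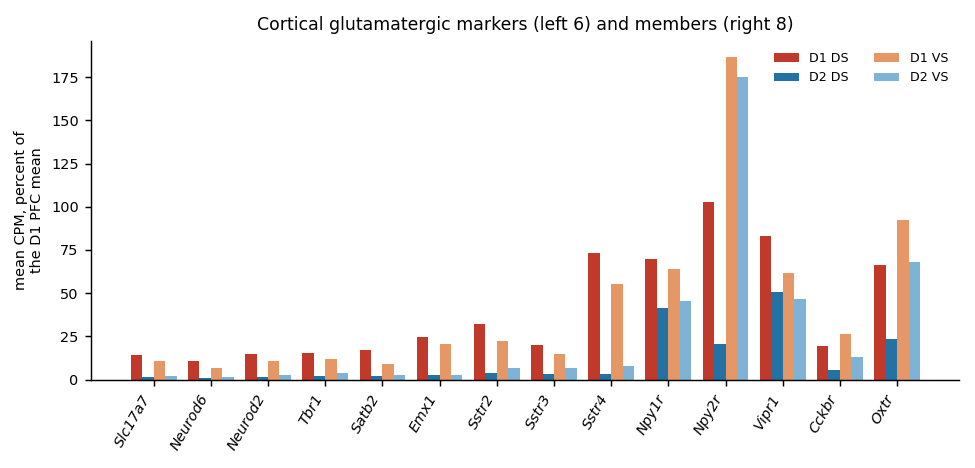
Mean CPM in each striatal group (bar colour) as a percent of the mean in D1 prefrontal libraries (y axis, from 0) for 6 cortical glutamatergic markers and 8 members (x axis). In D1 dorsal libraries 5 of the 6 markers stay at or below 16.8% and Emx1 reaches 24.5%, Cckbr and Sstr3 lie between those values, and Sstr4, Npy1r, Vipr1 and Npy2r are well above them.

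The second comparison sets dorsal against ventral striatum within each promoter. Trhr was higher in ventral striatum by more than any other member tested, and Adcyap1r1 and Cckbr were higher there too, under both promoters. No member was called dorsal-high in D2 libraries, except Mchr1 under median-ratio scaling (0.36) and Ntsr2 under quantile normalization (0.54). In D1 libraries 13 members were tested and 5 called, 1 higher and 4 lower in dorsal striatum, with a median of 0.00 against -0.12 over all genes. The background over all genes was 34.6% called, 10.1% dorsal-high and 24.5% ventral-high. In D2 libraries 10 were tested and 3 called, 0 higher and 3 lower, with a median of -0.13 against -0.12, and of all genes 28.5% were called, 7.93% higher and 20.6% lower. At the 0.2 CPM filter the D1 median was -0.40 over 23 members, against -0.11 over all genes. The D2 median was -0.32 over 18 members, against -0.12 over all genes. Median-ratio scaling moved the median of all genes to -0.01 in D1 and 0.01 in D2 libraries, and the share of called genes that were dorsal-high from 29.2% to 50.3% and from 27.8% to 51.1%. Cell type markers moved with region as well. In D2 libraries 5 of the 6 GABA interneuron markers tested and 2 of the 3 cholinergic markers were ventral-high (medians -0.84 and -0.70), and 7 of 7 projection neuron markers were dorsal-high (median 0.78). The GABA interneuron list includes Gad2, which projection neurons share. In D1 libraries 6 of 7 projection neuron and 3 of 3 oligodendrocyte markers were dorsal-high (medians 0.57 and 0.58), and the GABA interneuron markers split, with 3 called in each direction. Markers of the D1 and D2 neurons moved as well. In D1 libraries 5 of 5 D2 markers were ventral-high (median -1.15), and of 5 D1 markers 3 were dorsal-high and 1 ventral-high. In D2 libraries 3 of 5 D1 markers were ventral-high (median -0.74) and 5 of 5 D2 markers dorsal-high (median 0.69). The part of any of these cells in the receptor results was not tested.

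Trhr ran from 3.26 to 9.85 CPM (median 4.61) in D1 ventral and from 0 to 0.749 CPM (median 0.168) in D1 dorsal libraries. In D2 libraries it ran from 3.03 to 13.6 CPM (median 9.31) in ventral and from 0.0517 to 1.01 CPM (median 0.163) in dorsal striatum. Neither pair overlapped. The log2 differences, dorsal minus ventral, were -2.91 ± 0.14 (adjusted p = 5.25e-18, limma) and -3.58 ± 0.19 (adjusted p = 6.97e-17, limma). Calcr was also higher in ventral than in dorsal striatum, at a lower level, with 0.117 to 2.17 CPM in D1 ventral and 0.347 to 2.67 CPM in D2 ventral libraries. In dorsal striatum it had no read in 14 of 15 D1 and 13 of 16 D2 libraries. In D2 libraries its log2 difference was -1.68 ± 0.15 (adjusted p = 2.92e-11, limma, filter at 0.2 CPM), and in D1 libraries it did not reach the filter.

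**Figure D4:**
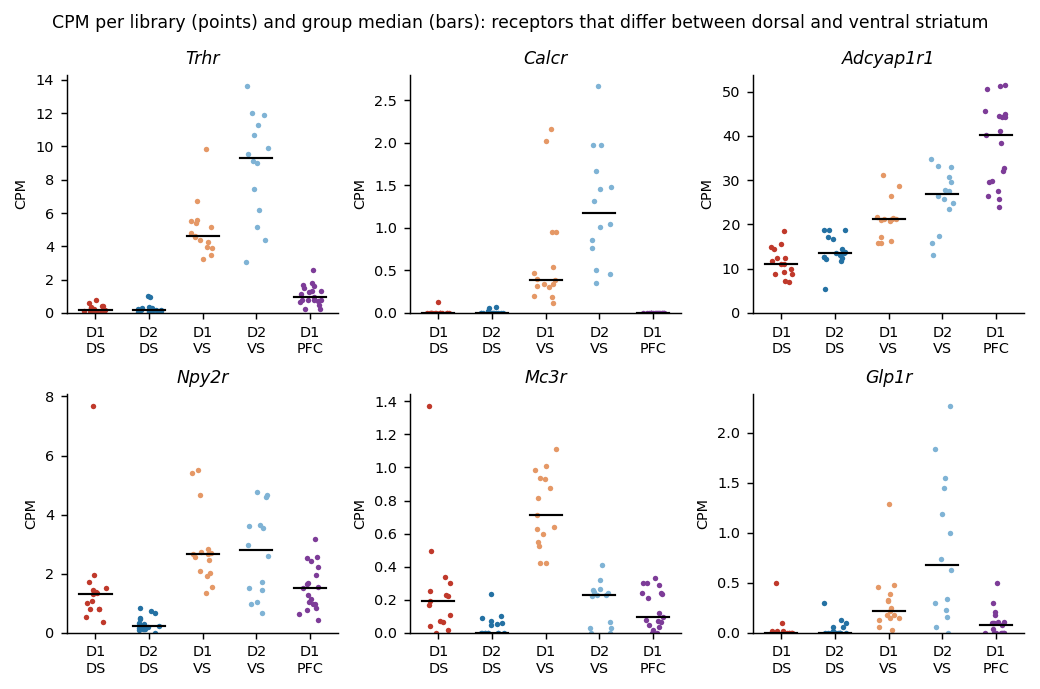
CPM of 6 receptors (y axis, from 0) in each library, 1 point per library, by group (x axis), with black bars at the group medians. Trhr and Calcr are near 0 in both dorsal groups and present in both ventral groups, and Adcyap1r1 is lowest in dorsal striatum and highest in prefrontal cortex.

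Adcyap1r1, the PACAP receptor, ran from 15.7 to 31.3 CPM (median 21.1) in D1 ventral and from 7.08 to 18.5 CPM (median 10.97) in D1 dorsal libraries, and 11 of 15 ventral values exceeded the highest dorsal value. The log2 differences were -0.88 ± 0.12 in D1 (adjusted p = 3.99e-07, limma) and -0.85 ± 0.15 in D2 libraries (adjusted p = 2.03e-05, limma). Cckbr was lower in dorsal striatum, with differences of -0.40 ± 0.11 in D1 (adjusted p = 0.00403, limma) and -0.92 ± 0.19 in D2 libraries (adjusted p = 0.000344, limma), and among EM libraries alone the D1 difference was -0.30 (adjusted p = 0.0701, limma). Ntsr2, a neurotensin receptor, was higher in D1 dorsal libraries, at a median of 1.65 against 0.836 CPM (0.75 ± 0.13, adjusted p = 1.31e-05, limma). The 5 astrocyte markers summed to medians of 6.16 CPM in D1 dorsal and 4.04 CPM in D1 ventral libraries, with 1 tested and 0 called. The part of astrocytes in this Ntsr2 result was not tested. Npy2r, a presynaptic neuropeptide Y receptor, was lower in D1 dorsal libraries, with a difference of -0.85 ± 0.22 (adjusted p = 0.00233, limma), and its highest value in any library, 7.69 CPM, was in D1 dorsal replicate 13. edgeR's quasi-likelihood test on the recovered reads gave -0.78 (adjusted p = 0.0516). Sstr2 missed the threshold in D1 libraries (0.43 ± 0.17) but was called dorsal-high without D1 ventral replicate 15 (0.49, adjusted p = 0.0220, limma), among EM libraries alone (0.57, adjusted p = 0.0104, limma), with edgeR (0.64, adjusted p = 0.0146), with median-ratio scaling (0.52) or quantile normalization (0.56), with a pseudocount of 1 (0.37), with either covariate (0.50 and 0.43) and with all 5 groups in 1 fit (0.43). Sstr3 (0.33 ± 0.19) was called with quantile normalization (0.47) and with the letters of the library name as covariate (0.39). Sstr4 (0.24 ± 0.22) was called without D1 dorsal replicate 13 (0.42, adjusted p = 0.0280, limma).

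With the lower filter more members were called, most of them ventral-high, as were most of all called genes. At 0.2 CPM, 13 of 23 members tested were called in D1 libraries (12 of them lower in dorsal striatum), against 32.9% of all genes (23.2% lower). In D2 libraries 8 of 18 were called (all 8 lower), against 27.1% of all genes (20% lower). In D1 libraries these included Hcrtr2, the orexin receptor 2 (-0.87), Mc3r (-0.78), the melanocortin receptor Mc4r (-0.64), Calcrl (-0.59), Grpr, the gastrin-releasing peptide receptor (-0.55), Tacr3 (-0.50), Ntsr1 (-0.43) and Crhr1 (-0.34). In D2 libraries they included Npy2r (-1.86 ± 0.21, adjusted p = 7.65e-09, limma), Oxtr (-1.10 ± 0.20), Npy5r (-0.78) and Sstr2 (-0.47). Glp1r had median 0.681 CPM in D2 ventral, 0.214 in D1 ventral and 0 in both dorsal groups.

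The third comparison sets D1 prefrontal cortex against D1 striatum. Crhbp, Cckbr, Sstr3, Sstr2, Ntsr1, Grpr and Adcyap1r1 were higher in cortex than in either striatal region, and Mchr1 and Tacr1 were lower than in either. Both contrasts use the same 19 cortical libraries. GABA interneuron markers, a list that includes Gad2, moved with them. Against dorsal striatum 8 of 8 tested were called (7 higher in cortex, median 1.95), and against ventral striatum 7 of 8 (6 higher, median 2.87). The part of these markers' cells in the receptor results was not tested. Against dorsal striatum, 16 members were tested and 14 called, 12 higher and 2 lower in cortex, with a median of 0.88 against 0.05 over all genes. Of all genes 54.8% were called, 32.3% higher and 22.5% lower. Against ventral striatum, 17 were tested and 16 called, 12 higher and 4 lower, with a median of 0.78 against -0.07, and of all genes 62.8% were called, 27.7% higher and 35.1% lower.

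**Figure D5:**
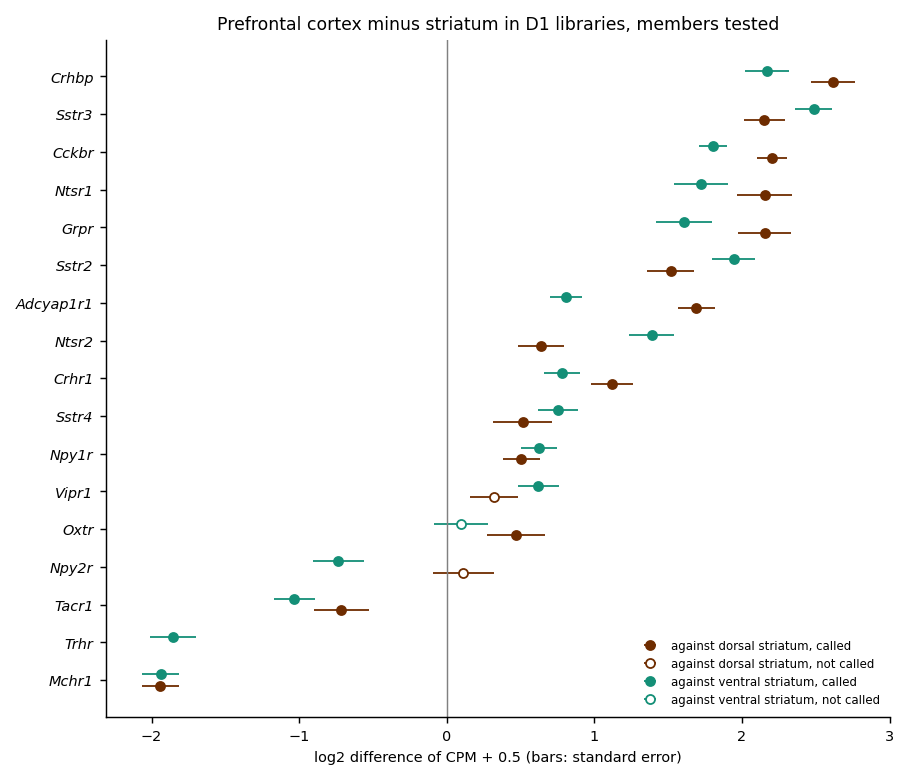
Difference in log2(CPM + 0.5) between D1 prefrontal and D1 striatal libraries (x axis) for each member tested (y axis), with standard errors as bars, against dorsal (brown) and ventral (green) striatum. Filled points were called, and Crhbp and Sstr3 lie farthest to the cortical side and Mchr1 farthest to the striatal side.

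Crhbp is a secreted protein that binds CRH. It ran from 2.33 to 7.48 CPM (median 5.31) in cortex, from 0 to 1.02 CPM (median 0.431) in D1 dorsal and from 0.210 to 2.31 CPM (median 0.661) in D1 ventral libraries, without overlap with either. The log2 differences were 2.62 ± 0.15 and 2.17 ± 0.15 (adjusted p = 8.95e-19 and 2.02e-16, limma). Cckbr ran from 12.7 to 24.0 CPM (median 15.8) in cortex, above every striatal library, and differed by 2.20 ± 0.10 and 1.80 ± 0.09 (adjusted p = 1.97e-21 and 2.74e-20, limma). Sstr3 ran from 7.00 to 14.7 CPM (median 9.76) in cortex, above every striatal library, and differed by 2.15 ± 0.14 and 2.48 ± 0.12. Sstr2 ran from 5.14 to 21.1 CPM (median 10.3), with 18 of 19 libraries above the highest D1 dorsal value and 19 of 19 above the highest D1 ventral value, and differed by 1.52 ± 0.16 and 1.94 ± 0.14. Ntsr1, a neurotensin receptor, and Grpr had medians of 2.96 and 2.09 CPM in cortex and differed by 2.15 each against dorsal and 1.72 and 1.60 against ventral striatum. Adcyap1r1 ran from 23.8 to 51.6 CPM (median 40.1) and differed by 1.69 ± 0.12 and 0.81 ± 0.11.

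Ntsr2 was also higher in cortex, by 0.64 against dorsal and 1.39 against ventral striatum, in cortex libraries whose 5 astrocyte markers summed to a median of 25.1 CPM, against 6.16 CPM in D1 dorsal and 4.04 CPM in D1 ventral libraries, and the astrocytes' part in that result was not tested. Crhr1 was higher in cortex by 1.12 and 0.78, Npy1r by 0.51 and 0.62, and Sstr4 by 0.51 and 0.75. Sstr4 against dorsal striatum was not called with median-ratio scaling (0.46, adjusted p = 0.0578, limma), quantile normalization (0.34, adjusted p = 0.117, limma) or edgeR (0.36, adjusted p = 0.173). Vipr1 was called against ventral striatum (0.62) and not against dorsal striatum (0.32). Oxtr was called against dorsal striatum (0.47, adjusted p = 0.0402, limma) but not without D1 prefrontal replicate 10 (adjusted p = 0.0636, limma), and its difference from ventral striatum was 0.09. With the filter at 0.2 CPM, 20 of 23 members were called against dorsal striatum (17 higher in cortex), where 54.9% of all genes were (33.5% higher), and 23 of 26 against ventral striatum (14 higher), where 61.7% were (28.8% higher). At that filter Sstr1, a further somatostatin receptor, was called in both (1.18 and 1.02, no overlap with either striatal group), as was Hcrtr1, the orexin receptor 1 (0.56 and 0.58), and Nmbr, the neuromedin B receptor, and Hcrtr2 were called against dorsal striatum (0.49 and 0.71). Lower in cortex than in ventral striatum at that filter were Mc3r (-0.96 ± 0.10, adjusted p = 2.21e-11, limma), Tacr3 (-0.73), Calcrl (-0.50), Mc4r (-0.38) and Npy5r (-0.36), and Npy5r was also lower than in dorsal striatum (-0.29). Every D1 ventral library lay above all 19 cortical libraries for Mc3r, and for Calcr, which was not tested there. An antisense gene overlaps 15.6% of Nmbr's exon bases, and whether the libraries kept strand is not stated.

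On the striatal side, Mchr1 ran from 1.78 to 5.92 CPM (median 3.49) in cortex, below every D1 dorsal library (8.08 to 19.0 CPM, median 15.98) and every D1 ventral library (9.18 to 21.6 CPM, median 16.2). The log2 differences were -1.94 ± 0.12 in both contrasts (adjusted p = 3.68e-17 and 2.63e-17, limma). Tacr1 was lower in cortex, with differences of -0.72 ± 0.19 (adjusted p = 0.00112, limma) and -1.03 ± 0.14 (adjusted p = 1.74e-08, limma). Trhr was lower in cortex than in ventral striatum, with a difference of -1.85 ± 0.15 (adjusted p = 8.17e-14, limma), while at 0.2 CPM it was higher in cortex than in dorsal striatum by 1.05 ± 0.16 (adjusted p = 3.36e-07, limma). Npy2r was lower in cortex than in ventral striatum (-0.74 ± 0.17, adjusted p = 0.000294, limma) and did not pass the test against dorsal striatum (0.11 ± 0.21).

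The genes most like 5 further members over the 79 libraries, by Spearman rho and with no test, were Gng2, Fhl2 and Stmn2 for Sstr2 (0.951, 0.947, 0.940), Trp53i11, Stac2 and Ube2ql1 for Cckbr (0.940, 0.937, 0.934), Hunk, Shd and 1110008P14Rik for Crhbp (0.842, 0.842, 0.827), Gucy1a3, Tacr1 and Penk for Tacr3 (0.830, 0.829, 0.827), and Ptprt, Pitpnm3 and Nrg3 for Npy1r (0.797, 0.788, 0.784). Promoter and region differ between these libraries, so any pair of genes that follow the same group shows such a value.

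Of the 30 peptide genes listed as ligands of these receptors, between 5 and 8 were tested in each comparison. Between D1 and D2 dorsal libraries 5 were tested and 5 called, 4 higher and 1 lower in D1, where 25.9% of all genes were called. Tac1, the substance P precursor, differed by 3.17 ± 0.17, Cck by 2.51 ± 0.15 and Sst by 1.54 ± 0.22 (adjusted p = 2.45e-17, 3.42e-16 and 1.01e-06, limma). In ventral striatum, where 47.7% of all genes were called, 7 were tested and 5 called, all 5 higher in D1, led by Tac1 (2.63), Cck (1.51) and Avp (1.10). Between dorsal and ventral D1 libraries (34.6% of all genes called) 6 of 6 tested were called, 4 higher in dorsal, with Nts the largest (-2.97 ± 0.23), Cck (1.05) and Tac2 (-1.01), and in D2 libraries (28.5%) 3 of 5 were called, 3 lower in dorsal. In cortex against dorsal striatum (54.8%) 7 of 7 were called, 6 higher in cortex, led by Tac1 (-4.48), Vip (4.42) and Tac2 (3.64). Against ventral striatum (62.8%) 8 of 8 were called, 6 higher, led by Vip (4.70), Tac1 (-4.13) and Cck (4.04). Cck was thus D1-high in both striatal regions, dorsal-high in D1 libraries and higher in cortex than in ventral striatum. The 6 cortical markers moved the same way, with summed medians of 101.3 CPM in D1 dorsal and 66.2 CPM in D1 ventral libraries. In D2 dorsal and ventral libraries these were 8.31 and 11.3 CPM. The part of cortical RNA in the Cck results was not tested. The D1 minus D2 difference itself differed between dorsal and ventral striatum for 3 of 7 tested (2.64% of all genes), Nts (-2.05), Sst (1.63) and Npy (1.23).

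Accessory proteins include the RAMPs, which set the ligand of Calcrl and Calcr, and Mrap2, a partner of melanocortin receptors. Of 6, 3 of 4 tested were called D1-high in dorsal striatum (12.8% of all genes D1-high) and 3 of 4 in ventral striatum (24.1%), where Mrap2 was the largest (1.32 ± 0.16, adjusted p = 8.44e-08, limma). Mrap2 was also lower in D1 dorsal than in D1 ventral libraries (-1.10 ± 0.15). Ramp1 was lower in cortex than in dorsal (-1.89) and ventral striatum (-1.66), and Ramp3 was higher in cortex than in dorsal striatum (1.34). Among 13 G protein alpha subunits, 5 of 11 tested were called between D1 and D2 in dorsal striatum (25.9% of all genes) and 10 of 11 in ventral striatum (47.7%), with Gnai1 D1-high in dorsal striatum (1.54 ± 0.16, adjusted p = 1.05e-09, limma). Gnal, the striatal alpha subunit that couples D1 receptors to adenylyl cyclase, was lower in cortex than in dorsal (-2.19) and ventral striatum (-2.02), and Gnas was higher (2.51 and 1.97). Gnai2 was also higher in cortex than in dorsal striatum (1.21). Between dorsal and ventral striatum 6 of 11 alpha subunits were called in D1 libraries (34.6% of all genes), with Gnai2 ventral-high (-1.26), and 7 of 11 in D2 libraries (28.5%), with Gnai1 (-1.63), Gnai2 (-1.39) and Gnas (-1.19) ventral-high. Of 32 further neuropeptide receptors in the table, at most 4 were tested in a comparison. Rxfp1, a relaxin receptor, was higher in cortex than in dorsal (2.36) and ventral striatum (2.74), and Npsr1 was D1-high in ventral striatum (1.13).

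The remaining members had low medians in every group. Cckar, the cholecystokinin A receptor, had its highest median, 0.377 CPM or 22.5 reads, in D2 ventral libraries, where it reached 0.792 CPM and 3 of 14 libraries had no read. In D1 ventral libraries, Galr1 and Galr2, the galanin receptors, had medians of 0.193 and 0.0329 CPM, Cckar 0.173 CPM, and Avpr1a, a vasopressin receptor, 0.143 CPM. In the same libraries Sstr5 had 0.0965 CPM, Vipr2, another VIP receptor, 0.0807 CPM and Crhr2, a urocortin receptor, 0.0645 CPM. All but Cckar, Galr1 and Crhr2 did not reach the 0.2 CPM filter in any comparison, and those 3 were tested there only in the ventral D1 against D2 contrast or the region interaction, with no call.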

How the data were processed

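Libraries came from 79 pools of mouse tissue in 5 groups. The deposited CPM values (read counts scaled to one fixed total per library) were computed by the authors for 25899 gene symbols. Reads were trimmed with Trim Galore 0.4.2 and cutadapt 1.9.1, checked with FastQC and aligned with HISAT2 to GRCm38, per the submitters' processing notes, while the counting program, its annotation and its use of strand are not given in the sources used here. Each CPM was a whole multiple of what 1 read is worth (100% of values, tolerance 0.001), so reads were recovered and used in an edgeR 4.0.16 quasi-likelihood test as an alternative.

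The main test was limma 3.58.1 (run in R 4.3.3, with a mean-variance trend in its empirical Bayes step) on log2(CPM + 0.5). The filter was 1 CPM, and each model was fitted on the 2 groups compared (the 4 striatal groups for the test of the difference between regions). P-values were Benjamini-Hochberg adjusted over all genes tested, with a threshold of 0.05. Error bars and ± on log2 differences are standard errors. The script was tested on simulated data with known changes. Intervals and floors cover counting error only, and amplification without molecular identifiers means that reads are not independent molecules. The 592 pairs of libraries within a group were checked for duplicates, and the smallest chi-square per degree of freedom was 7.71. The labels pair no libraries, and replicate numbers follow accession order. Library names start with EM, BdP, OdP or JAG, whose meaning the labels do not give. EM libraries alone, other scalings, pseudocounts (0.1, 1), filters, covariates and left-out libraries were the alternatives, and the left-out libraries other than D2 ventral replicate 2 were chosen after seeing the data.

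Per-kilobase levels used GENCODE M21 exon lengths, and promoters RefSeq on GRCm38.p6. The members and all gene lists were chosen with earlier results of these data known. Every member was described. Genes of the other lists were named when called and changed at least 2-fold, at most the 3 largest per list and comparison.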

Additional observations from a re-analysis of the deposited data

Results flagged for a closer look

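The D1 minus D2 difference of Sstr2 was larger in dorsal than in ventral striatum by 0.89 on the log2 scale (SE 0.23, adjusted p = 0.0158, limma), a difference between regions found by the test of the difference itself. Over 18 alternatives it ran from 0.69 to 1.48 and was called in each. The D1 dorsal libraries also held more cortical marker RNA than the D1 ventral ones (summed medians 101.3 and 66.2 CPM). In the same test 0 of 5 cortical markers were called (median 1.12). Of the other marker lists, 5 of 5 D2 neuron markers (median -1.93), 1 of 5 D1 neuron markers (0.62) and 2 of 6 GABA interneuron markers (0.74) were called. The part of any of these in the Sstr2 difference was not tested. No group had 10 or fewer libraries, so single libraries were not screened as outliers by Dixon's ratio.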

How the results depend on the processing

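Of 1404 results for single members under an alternative, 1353 stayed on their side of the threshold, 21 were no longer called and 30 were newly called. No called result changed direction, while 18 of the 1353, called in neither setting, changed sign. Of 52 called results, 8 were lost under at least 1 alternative, Vipr1 between D1 and D2 dorsal libraries under 7, Oxtr and Sstr4 between cortex and dorsal striatum under 6 and 3, and the other 5 under 1 each. The number of members called depended mostly on the filter. With the filter at 0.2 CPM and with none, it was 13 and 17 for D1 against D2 in dorsal striatum, 14 and 15 in ventral striatum, 13 and 19 for dorsal against ventral in D1 libraries, and 8 and 17 in D2 libraries. With no filter it was 22 for cortex against dorsal and 29 against ventral striatum. The share of all genes called fell with no filter, to 17.2% and 29.9% for D1 against D2 in dorsal and ventral striatum, 22.8% and 18.6% for dorsal against ventral in D1 and D2 libraries, and 41.9% and 47% for cortex against dorsal and ventral striatum. For the difference between regions, where 1 member was called, the count was 2 with a pseudocount of 0.1 or 1, with the percentage of reads in genes as covariate and with edgeR, and 3 with the letters of the library name as covariate or all 5 groups in 1 fit, and the cause was not tested. Leaving out a library gave 1 to 2 there. No paired analysis was run, because the labels name no shared mice. A single number, JAG 13, occurs in 2 groups (D1 dorsal and, with a suffix, D1 ventral). The numbers in the names often run on from region to region, which the labels do not explain. If regions did share mice, the comparisons between regions leave that pairing out, and its effect was not tested. Depth limits members near 0: 3 reads were worth between 0.0373 CPM and 0.140 CPM.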
